A study of Homo sapiens with 22 samples.

Results

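ATP-binding cassette (ABC) drug efflux pumps were examined in Caco-2 cells. This established line came from a human colorectal adenocarcinoma, serves as a model of the intestinal epithelium, and was used undifferentiated by the labels. The 9 genes were chosen by name, as ABCB1 and 8 other pumps known for carrying drugs, conjugates or lipids out of cells, and all 9 were found among the 61487 genes of the count table. The question was whether the other pumps followed ABCB1 across 4 conditions. In every condition 10% of the culture medium was replaced for 48 h. The replacement was phosphate-buffered saline in 4 vehicle samples (PBS), faecal water of untreated mice in 7 samples (FWctl), faecal water of the same mice under antibiotics in 7 samples (FWatb), and the antibiotic cocktail itself in 4 samples (ATB). The cocktail held neomycin at 1 g/L, vancomycin at 0.5 g/L and meropenem at 0.25 g/L. Faecal water is an aqueous extract of faeces, and all groups shared one wild-type cell line grown in medium with an antibiotic-antimycotic supplement, so no group was free of antimicrobial agents. The replicates are samples of one line, and for PBS and ATB nothing says that they came from separate cultures, so p-values there measure the spread between samples only.

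The pumps use the energy of ATP to move their substrates across a membrane against a gradient. In enterocytes ABCB1 (P-glycoprotein), ABCC2 (MRP2) and ABCG2 (BCRP) sit in the apical membrane and return drugs to the gut lumen, while ABCC3 (MRP3) sits in the basolateral membrane and passes conjugates towards the blood. ABCB1 carries bulky hydrophobic drugs, tacrolimus among them, and the ABCC pumps mainly carry anionic conjugates. RNA levels alone were measured here, and in bulk RNA fewer cells with a transcript and less transcript per cell cannot be told apart.

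Sequences upstream of the start of transcription are shown for ABCB1, ABCG2 and ABCC6. ABCB1 gives the comparison its reference. ABCG2 had the highest rank correlation with it over 21 samples (0.88), with ABCC4 (0.85) and ABCC2 (0.84) close behind. ABCC6 fell most of the pumps between FWatb and FWctl, the comparison in which ABCB1 rose most. Each sequence is the 250 bases before the start of the main transcript on the coding strand, from RefSeq on GRCh38.p14. CCAAT boxes (CCAAT or its reverse complement ATTGG) are in capitals.
ABCB1, chr7:87600885-87601134, minus strand: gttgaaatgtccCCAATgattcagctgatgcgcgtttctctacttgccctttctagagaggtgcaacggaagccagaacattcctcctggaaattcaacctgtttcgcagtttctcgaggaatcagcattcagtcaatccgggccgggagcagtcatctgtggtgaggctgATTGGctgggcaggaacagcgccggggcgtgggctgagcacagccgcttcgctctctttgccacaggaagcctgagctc
ABCG2, chr4:88158640-88158889, minus strand: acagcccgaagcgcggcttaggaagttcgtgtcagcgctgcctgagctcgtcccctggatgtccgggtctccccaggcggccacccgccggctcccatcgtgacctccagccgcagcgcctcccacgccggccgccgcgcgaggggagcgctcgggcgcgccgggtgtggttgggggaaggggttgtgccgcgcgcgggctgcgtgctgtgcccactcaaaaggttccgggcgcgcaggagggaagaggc
ABCC6, chr16:16223495-16223744, minus strand: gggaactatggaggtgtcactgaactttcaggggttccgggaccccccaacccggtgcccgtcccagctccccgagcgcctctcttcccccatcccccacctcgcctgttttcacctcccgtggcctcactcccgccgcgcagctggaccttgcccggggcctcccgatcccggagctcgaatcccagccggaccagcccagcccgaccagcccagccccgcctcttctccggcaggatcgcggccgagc

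Windows at the main start were found for 6 of the 9 pumps: ABCB1, ABCC2, ABCC4, ABCC5, ABCC6 and ABCG2. ABCB1 held 2 CCAAT boxes, with the inverted one spanning the bases 79 to 75 before the start, and the other 5 pumps held none, against 32% of 35116 windows of this length in the table. The GC box GGGCGG, searched on both strands, was found once in ABCC5 and in none of the other 5, against 42.6% of all windows. The G and C content ran from 45.6% in ABCC2 to 80.4% in ABCC4, with 55.6% in ABCB1, 70.8% in ABCC6 and 73.6% in ABCG2. The absence of these letters in a window says nothing of the factors that bind there.

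The libraries held between 7118302 and 18726967 counts (median 10825978). FWctl replicate 1 lay apart from the other FWctl samples and was kept out of the group values, as the rule for these genes asks: on the first principal component it scored 9.36, against 35.9 to 40.6 in the other 6 FWctl samples and -19.0 to -13.1 in all other samples. The libraries also formed 2 sets by their share of counts on ribosomal DNA genes (0.0162 to 0.0802% in 8 libraries and 1.87 to 8.18% in 14), which the labels do not name as a batch. All 7 FWatb libraries were in the set with the high share, with 4 FWctl, 2 PBS and 1 ATB library. Checked against the label, the epithelial markers EPCAM and KRT19 were abundant, with mean normalized counts over the other 21 samples of 6944 and 4310, while the caudal factor CDX1 was near 0 (0.813) and CDX2 was at 993.

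ABCB1 (ENSG00000085563, chromosome 7 from 87503017 to 87713323 on the minus strand of GRCh38, 33 exon blocks) is the reference for all that follows. Its normalized counts, that is counts divided by relative library size, were 1221, 1095, 1159 and 1289 in the 4 PBS samples, and 1537, 1378, 1341 and 1410 in the 4 ATB samples. In FWctl they ran from 764 to 1191 with a median of 840.4, and in FWatb from 1791 to 2229 with a median of 1833. Every FWatb sample was above every sample of the other groups, and FWctl overlapped only PBS. FWctl replicate 1, shown apart, was at 1966, inside the FWatb range.

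ABCG2 (ENSG00000118777, chromosome 4, 88090150 to 88231628, minus strand), the breast cancer resistance protein, had normalized counts of 352, 308, 323 and 377 under PBS and of 357, 335, 324 and 396 under ATB. In FWctl it ran from 289 to 339 (median 314) and in FWatb from 408 to 517 (median 491). As for ABCB1, all FWatb samples lay above all other groups, but FWctl lay inside or just below the range of PBS. In FWctl replicate 1 it was at 554, above every other sample.

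ABCC2 (ENSG00000023839, chromosome 10, 99782640 to 99852594, plus strand), which exports bilirubin and drug conjugates into bile and gut lumen, had 3480, 3861, 4093 and 3771 normalized counts under PBS and 4235, 3848, 4279 and 4346 under ATB. FWctl ran from 2841 to 3369 (median 2936) and FWatb from 4174 to 4848 (median 4310). FWctl lay wholly below the other 3 groups, and FWatb wholly above PBS and FWctl but overlapped ATB. The level of ABCC2 in FWctl replicate 1 was 4406, inside the FWatb range.

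ABCC4 (ENSG00000125257, chromosome 13, 95019835 to 95301475, minus strand), which exports cyclic nucleotides and nucleotide drugs, had 1172, 1233, 1327 and 1357 normalized counts under PBS and 1404, 1517, 1421 and 1514 under ATB. FWctl ran from 1193 to 1472 (median 1307) and FWatb from 1464 to 1678 (median 1610). The FWctl range covered nearly all of the PBS range, and FWatb overlapped FWctl at its lowest sample only. FWctl replicate 1 was at 1600, again inside FWatb.

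ABCB4 (ENSG00000005471, chromosome 7, 87401696 to 87480435, minus strand), the close relative of ABCB1 that moves phosphatidylcholine into bile, was the least abundant pump, with raw counts of only 2 to 21 per library in the 21 samples. Its normalized counts were 17, 7.1, 7.6 and 7.01 under PBS and 7.28, 11, 11.7 and 13.6 under ATB. FWctl ran from 2.68 to 7.48 (median 4.46) and FWatb from 4.75 to 17.2 (median 14). The groups overlapped throughout, and 1 PBS library held more than the other 3.

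ABCC6 (ENSG00000091262, chromosome 16, 16149565 to 16223522, minus strand), through which cells of the liver release ATP, went the other way. It had 324, 292, 321 and 300.3 normalized counts under PBS and 339, 278, 321 and 315 under ATB. FWctl ran from 571 to 657 (median 590.1) and FWatb from 222 to 309 (median 276). All FWctl samples were above all samples of the other 3 groups, which overlapped one another, and FWctl replicate 1 was at 529, outside the range of every group. Reads of ABCC6 can be shared with its pseudogene copies ABCC6P1 and ABCC6P2 on the same chromosome, which makes its level uncertain. The means of ABCC6P1 were 234 under PBS, 188 under FWctl, 178 under FWatb and 254 under ATB. Summed over ABCC6 and both copies, the normalized count was 609 ± 42.6 (SD, n = 4) under PBS, 841 ± 36.2 (n = 6) under FWctl, 504 ± 44.3 (n = 7) under FWatb and 641 ± 36.1 (n = 4) under ATB, so the high FWctl level remained in the sum.

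ABCC3 (ENSG00000108846, chromosome 17, 50634777 to 50692253, plus strand), the basolateral conjugate pump, had 1163, 1194, 1124 and 1108 normalized counts under PBS and 1189, 1439, 1243 and 1159 under ATB. FWctl ran from 1364 to 1744 (median 1631) and FWatb from 868 to 1213 (median 947). FWctl was wholly above PBS and FWatb and overlapped ATB through a single ATB library. FWctl replicate 1 was at 1208, among the FWatb and ATB samples and below its own group.

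ABCC1 (ENSG00000103222, chromosome 16, 15949138 to 16143257, plus strand), which exports glutathione conjugates and leukotriene C4, had 127, 123, 113 and 133 normalized counts under PBS and 128, 172, 106 and 102 under ATB. FWctl ran from 139 to 233 (median 213) and FWatb from 126 to 214 (median 189). Both faecal waters lay mostly above PBS, and they overlapped each other nearly fully.

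ABCC5 (ENSG00000114770, chromosome 3, 183919934 to 184017939, minus strand), an exporter of nucleotide analogues, had 235, 241, 269 and 274 normalized counts under PBS and 239, 360.2, 247 and 252 under ATB. FWctl ran from 249.9 to 390.5 (median 359) and FWatb from 283 to 328 (median 323). The narrow FWatb range lay inside the wide FWctl range. FWctl replicate 1 was at 182 for ABCC1 and at 311 for ABCC5, inside the ranges of both faecal waters.

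**Figure D1:**
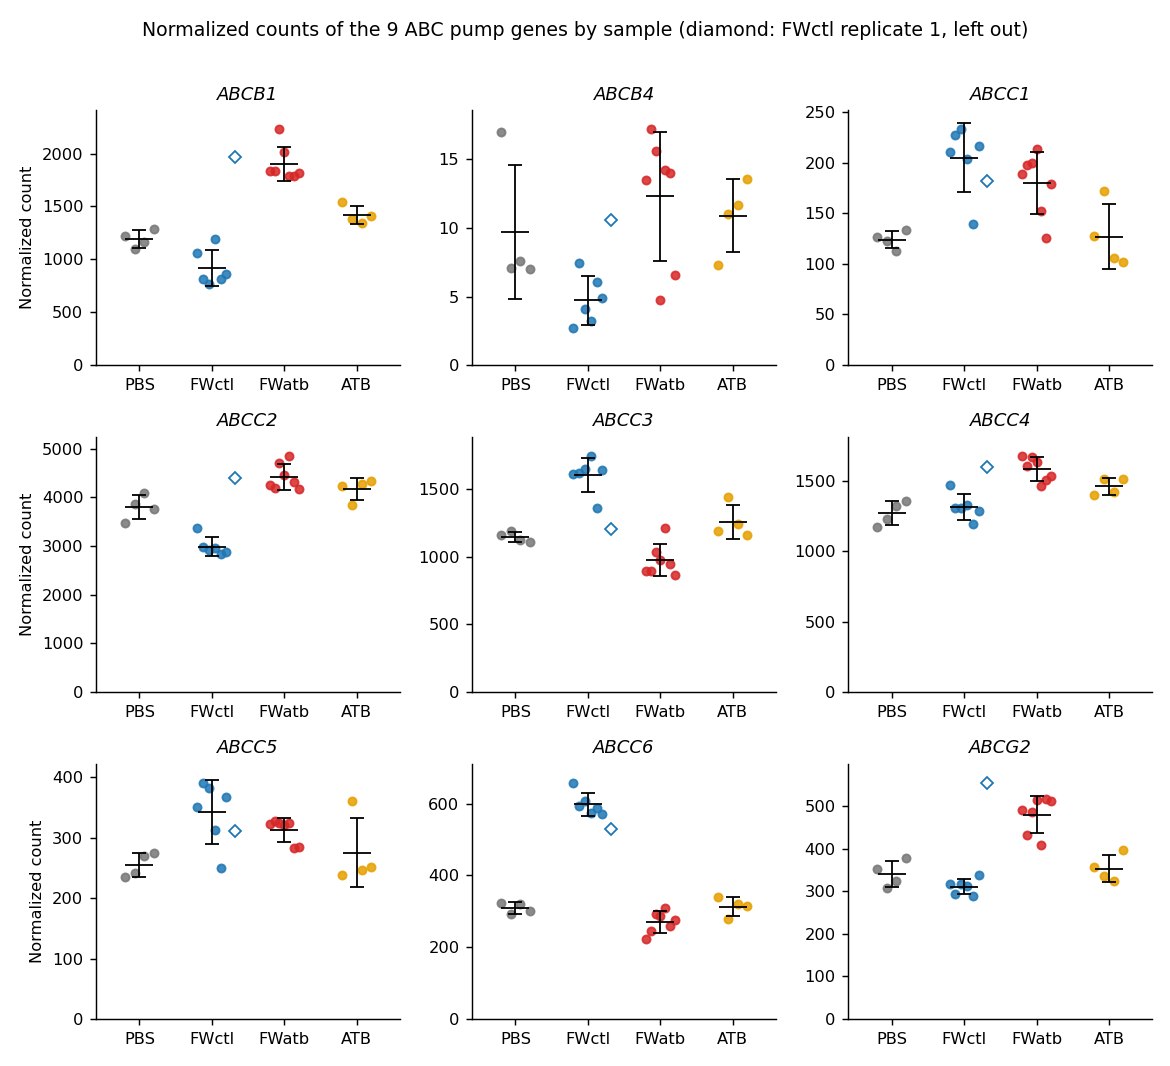
Normalized count (vertical axis, from 0) of each of the 9 pump genes in PBS (n = 4), FWctl (n = 6), FWatb (n = 7) and ATB (n = 4), with 1 point per sample and the mean and SD in black. The open diamond is FWctl replicate 1, which is left out of the mean. For ABCB1, ABCC2 and ABCG2 all FWatb points lie above all 6 FWctl points, and for ABCC6 and ABCC3 all lie below them.

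Levels of different genes were compared per kilobase of exon. ABCC2 was the most abundant pump in every group, at 485 ± 32.3 (SD, n = 4) normalized counts per kilobase under PBS, 382 ± 24.5 (n = 6) under FWctl, 564 ± 33.3 (n = 7) under FWatb and 533 ± 28.6 (n = 4) under ATB. ABCB1 came second under PBS, FWatb and ATB, at 185 ± 13, 296 ± 25.5 and 221 ± 13.2, followed by ABCC4, ABCC3, ABCG2, ABCC6, ABCC5, ABCC1 and ABCB4. The sample ranges of neighbours in that order did not overlap in these 3 groups, except those of ABCC3 (101 ± 12.4) and ABCG2 (85.7 ± 7.77) under FWatb. Under FWctl the order changed: ABCC3 (167 ± 13.2) and ABCC4 (152 ± 10.4) preceded ABCB1 (143 ± 26.4), and ABCC6 (86.6 ± 4.56) preceded ABCG2 (55.5 ± 3.25). The ranges of ABCC3 and ABCC4, of ABCC4 and ABCB1, and of ABCC5 and ABCC1 overlapped there.

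ABCB1 made up 17.2% ± 1.24 (SD, n = 4) of the summed level per kilobase of the 9 pumps under PBS, 13.7% ± 1.91 (n = 6) under FWctl, 22.4% ± 1.13 (n = 7) under FWatb and 18.3% ± 0.931 (n = 4) under ATB. ABCC6 made up 4.15% ± 0.264 under PBS, 8.34% ± 0.462 under FWctl, 2.96% ± 0.261 under FWatb and 3.77% ± 0.277 under ATB. The CPM is a count scaled to a common library total, without regard to gene length. Summed over the 9 pumps it was 702 ± 21.6 (SD) under PBS, 674 ± 60.3 under FWctl, 888 ± 60.8 under FWatb and 769 ± 41.3 under ATB. By this measure FWatb samples (798 to 977) held more pump transcript than FWctl samples (572 to 754) without overlap. Scaling by library total alone also raised all genes a little, with a median log2 change of 0.09 between FWatb and FWctl. The scaling used for the normalized counts gave -0.01.

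**Figure D2:**
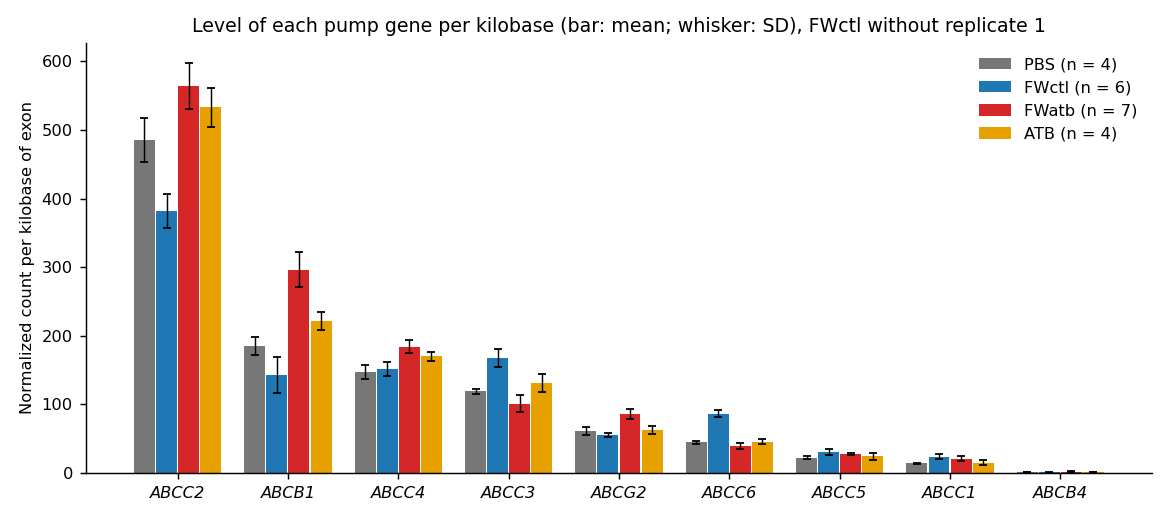
Mean level of each pump gene in normalized counts per kilobase of exon (vertical axis, from 0), with bars for PBS, FWctl, FWatb and ATB and whiskers for the SD over samples, FWctl without replicate 1. ABCC2 is the highest in each group and ABCB4 the lowest, at 0.611 to 1.59 per kilobase.

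Between faecal water of antibiotic-treated mice and faecal water of the same mice untreated, the 9 pumps split in 3 ways. ABCB1, ABCB4, ABCC2, ABCC4 and ABCG2 rose, ABCC3 and ABCC6 fell, and ABCC1 and ABCC5 did not pass the test. The test was edgeR's quasi-likelihood test on the counts, fitted to 20373 genes in 21 samples with Benjamini-Hochberg adjustment over all of them, and a gene was called at an adjusted p under 0.05. It called 7 of the 9 pumps, where it called 48.8% of all genes tested (23.4% higher, 25.4% lower), so a call by itself sets the pumps little apart. The median log2 change of the 9 pumps was 0.27, and that of all genes was -0.01.

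ABCB1 rose 2.07-fold, with a log2 change of 1.05 ± 0.08 (SE, adjusted p = 1.43e-14), and was higher in 6 of 6 pairs of samples with the same replicate number. The faecal waters came from the same mice, but no label ties a number to a mouse, so that these are pairs of 1 mouse is an inference. ABCG2 rose 1.54-fold, by 0.63 ± 0.07 on the log2 scale (adjusted p = 2.08e-09), and ABCC2 rose 1.48-fold, by 0.56 ± 0.06 (adjusted p = 3.62e-10). ABCC4 rose 1.21-fold, by 0.27 ± 0.06 (adjusted p = 0.000202). All 3 were higher in 6 of 6 pairs. ABCB4 rose 2.50-fold, by 1.32 ± 0.36 (adjusted p = 0.00211), also in 6 of 6 pairs, on counts so low that the SE was at least 3 times that of any other pump.

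ABCC6 fell by 1.15 ± 0.07 on the log2 scale (SE, adjusted p = 3.79e-17), which makes the FWctl level 2.22-fold higher, and ABCC3 fell by 0.72 ± 0.07 (adjusted p = 1.74e-11), with FWctl 1.65-fold higher. Both were lower in 6 of 6 pairs. ABCC1 had a log2 change of -0.20 ± 0.11 (adjusted p = 0.143), with 0 of 6 pairs higher under FWatb, and ABCC5 one of -0.14 ± 0.09 (adjusted p = 0.2), with 2 of 6 pairs higher. The FWatb and FWctl samples did not overlap for 5 of the 9 pumps (ABCB1, ABCC2, ABCG2, ABCC3 and ABCC6), against 25.5% of all genes. Called with an absolute log2 change above 1 were ABCB1, ABCB4 and ABCC6, 3 of the 9, against 12.7% of all genes. In a fit of the PBS, FWctl and FWatb libraries with a high ribosomal DNA share, the log2 changes were 1.09 for ABCB1, 0.63 for ABCG2, 0.63 for ABCC2, -0.69 for ABCC3 and -1.09 for ABCC6, and the same 7 pumps were called. The share of all genes called in that fit is not given here. Scaling by library size alone moved the split of all called genes from 4762 higher and 5180 lower to 5808 and 3933, and left each of the 7 calls and its direction in place.

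Between FWctl and PBS, a comparison that shares its FWctl samples with the one before, 4 pumps rose, 3 fell and 2 did not pass. ABCB1 fell by 0.38 ± 0.09 on the log2 scale (SE, adjusted p = 0.000614), ABCC2 fell by 0.35 ± 0.07 (adjusted p = 7.99e-05) and ABCB4 fell by 0.97 ± 0.41 (adjusted p = 0.0478). ABCC6 rose 1.94-fold (log2 0.95 ± 0.08, adjusted p = 7.9e-13), ABCC1 1.66-fold (0.73 ± 0.13, adjusted p = 1.23e-05), ABCC3 1.40-fold (0.49 ± 0.08, adjusted p = 3.45e-06) and ABCC5 1.35-fold (0.43 ± 0.10, adjusted p = 0.00063). ABCC4 and ABCG2 did not pass, with log2 changes of 0.05 ± 0.07 (adjusted p = 0.595) and -0.13 ± 0.09 (adjusted p = 0.208). This test called 46.4% of all genes (24.3% higher, 22.1% lower), and the samples did not overlap for 4 pumps (ABCC1, ABCC2, ABCC3 and ABCC6) and for 33.7% of all genes.

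The fall of ABCB1 under FWctl rests on leaving out FWctl replicate 1: with all 22 samples its log2 change was -0.18 ± 0.15 (adjusted p = 0.38), and that of ABCB4 was -0.73 ± 0.39 (adjusted p = 0.134). ABCB4 also missed the threshold without PBS replicate 1 (log2 -0.62, adjusted p = 0.26), without FWctl replicate 2 (-0.79, adjusted p = 0.128), 4 (-0.97, adjusted p = 0.0601), 6 (-0.95, adjusted p = 0.0618) or 8 (-1.02, adjusted p = 0.0516), and without FWatb replicate 7 (-0.97, adjusted p = 0.0511). ABCG2 passed it, as lower under FWctl, without PBS replicate 2 (-0.22, adjusted p = 0.0493). ABCC6, ABCC1, ABCC3 and ABCC5 stayed higher under FWctl with all 22 samples (log2 0.90, 0.68, 0.41 and 0.38), and within the libraries with a high (0.90, 0.64, 0.42 and 0.44) and a low ribosomal DNA share (0.96, 0.78, 0.49 and 0.40).

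Between FWatb and PBS, edgeR called 5 pumps higher and none lower, where 9.99% of all genes were called (6.04% higher, 3.95% lower). ABCB1 rose 1.59-fold (log2 0.67 ± 0.09, adjusted p = 1.39e-06), ABCC1 1.45-fold (0.53 ± 0.13, adjusted p = 0.00502), ABCG2 1.41-fold (0.49 ± 0.08, adjusted p = 5.44e-05), ABCC4 1.25-fold (0.32 ± 0.07, adjusted p = 0.00117) and ABCC2 1.16-fold (0.22 ± 0.07, adjusted p = 0.0361). The remaining 4 had log2 changes of 0.36 (ABCB4), 0.29 (ABCC5), -0.19 (ABCC6) and -0.23 (ABCC3). ABCC3 stood just outside the threshold (adjusted p = 0.0511), as did ABCC5 (adjusted p = 0.061). Both passed with DESeq2, ABCC3 as lower (log2 -0.24, adjusted p = 0.0259) and ABCC5 as higher (0.28, adjusted p = 0.0482), which makes 7 pumps. The share of all genes called by DESeq2 is not given here. ABCC3 also passed in edgeR with DESeq2's size factors (adjusted p = 0.0437), the stricter filter of 1 CPM in 4 samples (adjusted p = 0.0411) and the library set as a term (adjusted p = 0.0361). ABCC1 was thus above PBS under both faecal waters. The samples of the groups did not overlap for ABCB1, ABCC2, ABCC4, ABCC5 and ABCG2, against 6.86% of all genes.

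The calls near the threshold in this comparison turned on single libraries. ABCC2 missed it when 1 of 14 libraries was left out (PBS replicates 1, 2 and 4, FWctl replicates 3, 4, 6 and 8, FWatb replicates 1, 2, 3, 4, 6 and 8, and ATB replicate 3), with adjusted p from 0.0526 to 0.235. ABCC3 passed it, as lower under FWatb, without FWctl replicate 3, 4, 6, 7 or 8, FWatb replicate 3 or 6, or ATB replicate 2 or 3, with adjusted p from 0.00408 to 0.0461. ABCC5 passed it, as higher, without FWctl replicate 7 (adjusted p = 0.0331) or ATB replicate 2 (adjusted p = 0.0267). With all 22 samples ABCC2 did not pass (log2 0.21, adjusted p = 0.223). Scaling by library size alone moved the split of all called genes from 1231 higher and 804 lower to 2090 higher and 411 lower, and all 5 pumps rose under it, with ABCC5 (log2 0.37) besides. Within the high ribosomal DNA libraries ABCC1 (log2 0.52, adjusted p = 0.0571) and ABCC2 (0.27, adjusted p = 0.075) did not pass.

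Between cells given the antibiotics themselves and PBS, none of the 9 pumps was called by edgeR or by DESeq2, where edgeR called 0.285% of all genes. At an unadjusted p under 0.05 there were 2, ABCC4 (log2 0.20 ± 0.07, adjusted p = 0.354) and ABCB1 (0.25 ± 0.10, adjusted p = 0.395). For both, all 4 ATB samples were above all 4 PBS samples, as they were for 3.57% of all genes (5.58% in either direction). The other 7 had log2 changes between -0.03 and 0.19.

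FWatb set against ATB separated 4 pumps, where 14.5% of all genes were called (7.66% higher, 6.86% lower). ABCC1 (log2 0.56 ± 0.13, adjusted p = 0.00225), ABCG2 (0.44 ± 0.08, adjusted p = 0.000131) and ABCB1 (0.42 ± 0.09, adjusted p = 0.000561) were higher under FWatb, and ABCC3 (-0.36 ± 0.08, adjusted p = 0.00102) was lower. ABCB1 and ABCG2 had samples that did not overlap, against 8.61% of all genes. The others had log2 changes from -0.22 (ABCC6) to 0.22 (ABCC5). With all 22 samples ABCB1 kept its log2 change of 0.42 but did not pass (adjusted p = 0.0792). With library size alone 2 further pumps passed, ABCC4 (log2 0.22) and ABCC5 (0.32), and all called genes split into 2662 higher and 724 lower, against 1560 and 1398. All 7 FWatb libraries had a high ribosomal DNA share, as did 1 ATB library, replicate 2 (8.18%). No fit within a library set was made for this comparison. With the library set as a term the same 4 pumps passed. Their log2 changes were then 0.51 for ABCC1, 0.46 for ABCG2, 0.47 for ABCB1 and -0.42 for ABCC3. ATB replicate 2 held more ABCC5 than the other ATB samples, and without it ABCC5 (log2 0.35, adjusted p = 0.00835) and ABCC6 (-0.26, adjusted p = 0.0344) passed. ABCC6 also passed without FWatb replicate 6 (-0.26, adjusted p = 0.0239) and with DESeq2 (-0.23, adjusted p = 0.0297).

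**Figure D3:**
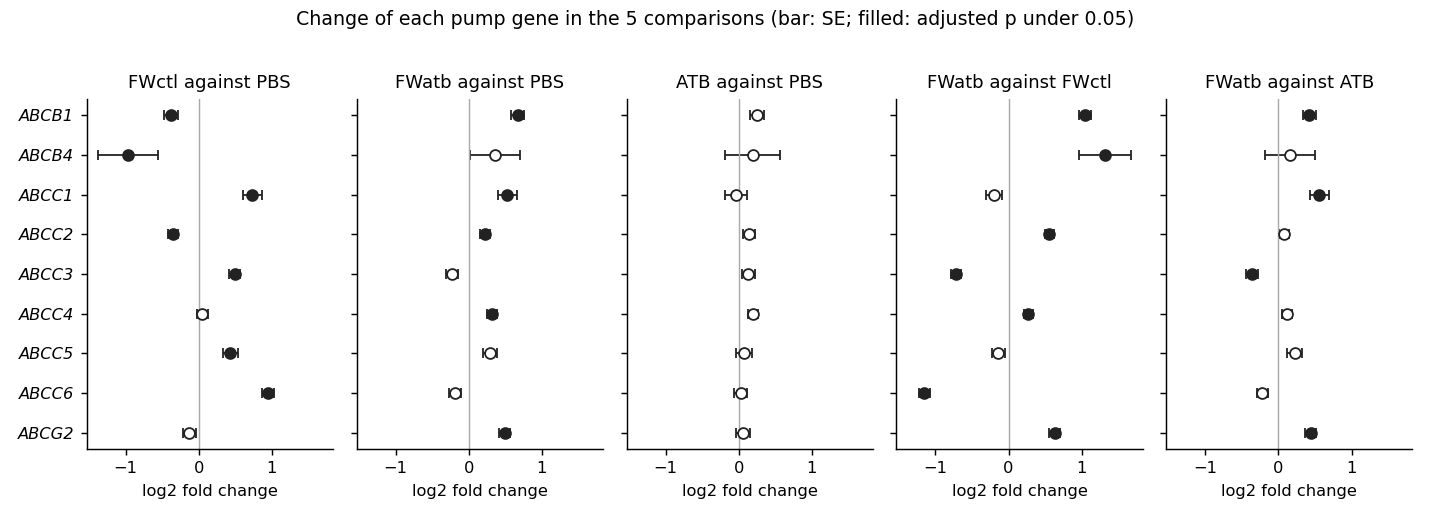
Log2 fold change of each pump gene in 5 comparisons (horizontal axis), from edgeR on 21 samples, with bars of 1 SE and filled points where the adjusted p over all genes is under 0.05. ABCB1 and ABCC6 lie on opposite sides of 0 in FWctl against PBS and in FWatb against FWctl, and no point is filled in ATB against PBS.

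A direct test of whether a pump followed ABCB1 used the count of ABCB1 in each sample as the baseline, so that the contrast is the change of a gene relative to ABCB1. Between FWatb and FWctl all pumps except ABCB4 changed differently from ABCB1, where 80.8% of all genes did (78.9% lower and 1.92% higher relative to ABCB1). The pumps that rose with ABCB1 rose less: relative to it ABCG2 fell by 0.45 ± 0.12 on the log2 scale (SE, adjusted p = 0.00044), ABCC2 fell by 0.51 ± 0.12 (adjusted p = 3.51e-05) and ABCC4 fell by 0.80 ± 0.11 (adjusted p = 7.26e-11). The relative falls were 1.22 ± 0.13 for ABCC5, 1.28 ± 0.14 for ABCC1, 1.79 ± 0.12 for ABCC3 and 2.22 ± 0.12 for ABCC6. ABCB4 had a relative change of 0.27 ± 0.39 (adjusted p = 0.523), an error wide enough to hold a change from well below to well above that of ABCB1.

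The ratio of ABCC6 to ABCB1, as a mean of the ratios of normalized counts per sample, went from 0.26 under PBS to 0.667 under FWctl and 0.142 under FWatb. That of ABCG2 to ABCB1 was 0.285 under PBS, 0.347 under FWctl and 0.254 under FWatb, and that of ABCC2 to ABCB1 was 3.21, 3.32 and 2.34.

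Between FWctl and PBS, 5 pumps rose relative to ABCB1 (50.2% of all genes changed relative to it, 42.5% higher, 7.72% lower). These were ABCC6 (log2 1.36 ± 0.14), ABCC1 (1.14 ± 0.16), ABCC3 (0.88 ± 0.14), ABCC5 (0.84 ± 0.15) and ABCC4 (0.45 ± 0.13). ABCC2 (0.05 ± 0.14, adjusted p = 0.78), ABCG2 (0.28 ± 0.14, adjusted p = 0.0913) and ABCB4 (-0.57 ± 0.44, adjusted p = 0.28) did not pass. Of these, ABCC2 had the estimate nearest to the change of ABCB1. ABCC4 did not pass with all 22 samples (log2 0.35, adjusted p = 0.151) or in the high ribosomal DNA libraries (0.47, adjusted p = 0.0517). ABCG2 passed without FWctl replicate 2 (0.32, adjusted p = 0.0486) or 6 (0.34, adjusted p = 0.0151).

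Between FWatb and PBS, 69.6% of all genes changed relative to ABCB1 (69.5% lower, 0.123% higher), with 5 pumps lower: ABCC3 (log2 -0.91 ± 0.13), ABCC6 (-0.87 ± 0.13), ABCC2 (-0.46 ± 0.13), ABCC5 (-0.38 ± 0.14) and ABCC4 (-0.35 ± 0.13). ABCG2 (-0.17 ± 0.13, adjusted p = 0.245), ABCC1 (-0.14 ± 0.15, adjusted p = 0.413) and ABCB4 (-0.30 ± 0.37, adjusted p = 0.462) did not pass. ABCC4 and ABCC5 did not pass with all 22 samples (adjusted p = 0.0885 and 0.102) or in the high ribosomal DNA libraries (adjusted p = 0.104 and 0.128), and ABCC5 did not without PBS replicate 3 (log2 -0.33, adjusted p = 0.0538). Between ATB and PBS none of the 8 pumps changed relative to ABCB1 by edgeR or by limma on log2 ratios, none had an unadjusted p under 0.05, and 0.196% of all genes were called by edgeR.

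Across the 21 samples, 3 pumps were positively and 2 negatively correlated with ABCB1, where 23.4% of all genes correlated with it in either direction (11.3% positively, 12.1% negatively, permutation p with Benjamini-Hochberg adjustment over 20372 genes). Spearman's rho was 0.88 for ABCG2, 0.85 for ABCC4 and 0.84 for ABCC2 (permutation p = 1e-05 each, the smallest that 100000 permutations can give, adjusted p = 0.00061). It was -0.80 for ABCC6 (permutation p = 5e-05, adjusted p = 0.00146) and -0.79 for ABCC3 (permutation p = 6e-05, adjusted p = 0.00163). Pearson's r on log2 counts was 0.87, 0.81 and 0.89 for ABCG2, ABCC4 and ABCC2, and -0.82 and -0.80 for ABCC6 and ABCC3 (permutation p from 1e-05 to 5e-05). Without the 2 samples farthest from each pump's median, r was 0.86 for ABCG2, 0.84 for ABCC4, 0.85 for ABCC2, -0.80 for ABCC6 and -0.81 for ABCC3.

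ABCB4 had a rho of 0.53 (permutation p = 0.0148, adjusted p = 0.0586), ABCC1 one of -0.14 (permutation p = 0.531, adjusted p = 0.665) and ABCC5 one of -0.11 (permutation p = 0.647, adjusted p = 0.762). ABCB4 passed by Pearson's r on log2 counts (0.55, permutation p = 0.0113, adjusted p = 0.0356), by rho with all 22 samples (0.55, adjusted p = 0.0464), and by rho without PBS replicate 1 (0.58), FWatb replicate 4 (0.68) or FWatb replicate 8 (0.60). Within the 14 high ribosomal DNA libraries the same 5 pumps passed, as did 9.15% of all genes, with a rho of 0.86 for ABCC4, 0.84 for ABCC2, 0.81 for ABCG2, -0.76 for ABCC3 and -0.74 for ABCC6.

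The samples fall into groups by condition, so these values rest on differences between conditions. After each gene was centred on its condition means, rho lay between -0.32 (ABCB4) and 0.51 (ABCC4) and no pump passed. The rho of ABCC6 was then 0.29 and that of ABCC3 0.04. Of all genes 0 passed by Spearman's rho, at an unadjusted p under 0.05 only ABCC4 did among the pumps (permutation p = 0.0229), and by Pearson's r none of the pumps did. The smallest p that 100000 permutations can give, 1e-05, does not pass for a lone gene after adjustment over 20372 genes. This limits what the 0 for all genes can show.

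Given as a description with no test, the rho with ABCB1 among the 15 PBS, FWatb and ATB samples, which leaves out the group that lay apart, was 0.90 for ABCC4, 0.86 for ABCG2, 0.78 for ABCC1, 0.65 for ABCC2 and 0.63 for ABCC5, and -0.61 for ABCC3 and -0.55 for ABCC6. ABCC1 and ABCC5 thus ranked with ABCB1 over the samples outside FWctl, while their rho over all 21 samples was near 0. The 15 samples again mix conditions. After centring on the condition means of the 21 samples, rho was 0.22 for ABCC1 and -0.12 for ABCC5. Among the 6 FWctl samples rho was -0.66 for ABCC1 and -0.60 for both ABCC5 and ABCB4, and between -0.31 and 0.43 for the other pumps. Among the 7 FWatb samples it was 0.93 for ABCC1 and 0.79 for ABCC4, and between -0.04 and 0.21 for the other pumps.

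**Figure D4:**
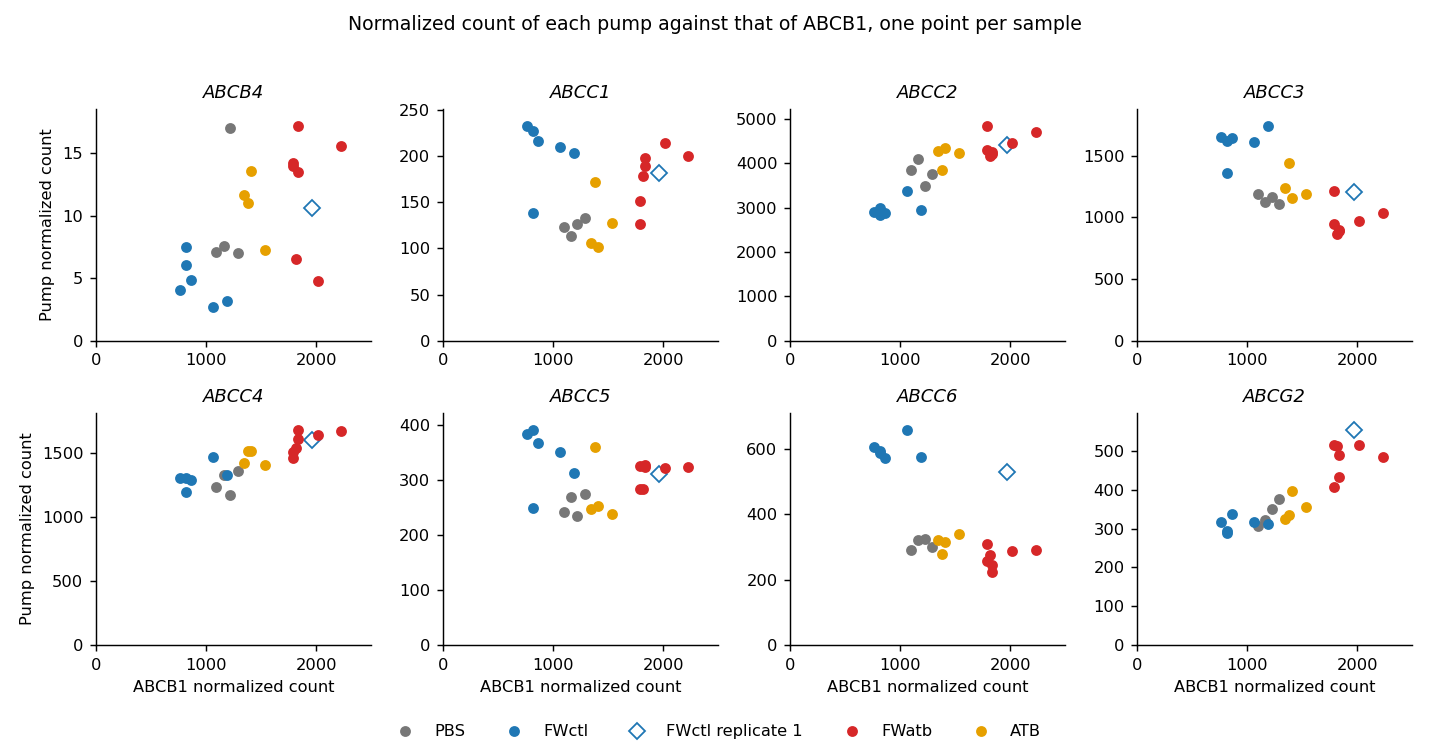
Normalized count of each of the other 8 pumps (vertical axes, from 0) against that of ABCB1 (horizontal axes, from 0), with 1 point per sample coloured by condition and FWctl replicate 1 as an open diamond. ABCG2, ABCC4 and ABCC2 climb with ABCB1 across conditions, and ABCC6 forms 2 levels, with FWctl on the upper one.

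FWctl replicate 1 did not stand with its group for most pumps. Its level was inside the FWatb range and outside the FWctl range for ABCB1, ABCC2, ABCC3, ABCC4 and ABCB4, inside both for ABCC1 and ABCC5, and outside all groups for ABCC6 (529) and ABCG2 (554). With it in the fit, the change between FWatb and FWctl was 0.84 ± 0.13 on the log2 scale for ABCB1 (adjusted p = 2.53e-06), 0.48 ± 0.11 for ABCG2, 0.49 ± 0.08 for ABCC2, -0.65 ± 0.08 for ABCC3 and -1.10 ± 0.07 for ABCC6, and the same 7 pumps were called. No share of all genes called is given here for that fit.

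Of 39 other ABC genes listed, 26 passed the filter on low counts, and between FWatb and FWctl 7 of them rose, 9 fell and 10 did not pass (median log2 change -0.11), against 23.4% higher and 25.4% lower over all genes. The cholesterol exporter ABCA1 rose most (log2 1.52 ± 0.08, adjusted p = 4.59e-19), from a mean of 383 to 1094 normalized counts. ABCA2 (0.74), the mitochondrial transporter ABCB10 (0.72), ABCA7 (0.69) and the lysosomal peptide transporter ABCB9 (0.68) followed. The potassium channel regulator ABCC9 (-0.76), ABCA5 (-0.53), the ribosome recycling factor ABCE1 (-0.49), ABCF2 (-0.40) and ABCC10 (-0.36) fell. All 10 passed the test, and the rule for naming them asked for a mean normalized count of at least 20.

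Between FWctl and PBS, 10 of the 26 rose and 6 fell, where 24.3% of all genes were called higher and 22.1% lower. ABCA1 fell by 1.73 ± 0.09 on the log2 scale and ABCE1 rose by 1.13 ± 0.08. Between ATB and PBS none of the 26 was called. Of the 22 other ABC genes with a mean of at least 20, those with the rank profile most like ABCB1 over the 21 samples were ABCB10 (rho 0.84, adjusted p = 0.00061) and the peroxisomal fatty acid transporter ABCD3 (0.72, adjusted p = 0.00535). The least like were ABCC9 (-0.63, adjusted p = 0.0199) and ABCA5 (-0.47, adjusted p = 0.105).

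Of 7 listed scaffold proteins that hold pumps at the apical membrane, 6 were tested. Between FWatb and FWctl NHERF2 (log2 1.16 ± 0.15, means 21.6 to 47.6), PDZD3 (0.74 ± 0.12) and NHERF1 (0.24 ± 0.07) rose, radixin (RDX, -0.65 ± 0.06) and ezrin (EZR, -0.33 ± 0.08) fell, and PDZK1 did not pass (0.11 ± 0.07). Moesin (MSN) was below the filter. Over all genes 23.4% were called higher and 25.4% lower. Between FWctl and PBS, which share the FWctl samples with this comparison, 2 of the 6 rose and 4 fell, where 46.4% of all genes were called.

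Among 13 listed transcription factors known to act on pump genes, 6 rose between FWatb and FWctl, 3 fell and 4 did not pass, where 48.8% of all genes were called. The vitamin D receptor VDR rose from a mean of 82.3 to 167 (log2 0.99 ± 0.11), PPARA from 506 to 929 (0.88 ± 0.07) and the constitutive androstane receptor NR1I3 from 27.1 to 47.6 (0.79 ± 0.17). NR1I3 overlaps TOMM40L on the opposite strand, and the strand setting of the counting was not stated, so reads of the overlap cannot be told apart. HIF1A (-0.67) and NFE2L2 (-0.53) were among those that fell, and are named here after their values were seen. The pregnane X receptor NR1I2, a known inducer of ABCB1, was at 4.55 to 6.78 mean normalized counts in these 2 groups (log2 0.76 ± 0.43, adjusted p = 0.146).

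Markers of other cells and of enterocyte maturation were also called in this comparison, in which 48.8% of all genes were. Of 8 tested epithelial markers 3 rose (KRT20 from a mean of 2.22 to 20.6, KRT18 from 3070 to 5705, and CDX2) and 3 fell, among them villin (VIL1, from 3673 to 2898). Of 5 tested brush border enzymes and carriers, aminopeptidase N (ANPEP) rose from 23.3 to 94.2 and sucrase-isomaltase (SI) from 190.5 to 243, while alkaline phosphatase (ALPI) and DPP4 fell. The FWatb means of ANPEP and SI were still below those under PBS (119.6 and 472), and under ATB the means were 104 and 796. Between ATB and PBS 1 of these 5 was called higher and 0 lower, where 0.285% of all genes were called. Of 7 markers of cells that the line should lack, 5 passed the filter, with COL1A1 (11.4 to 76.5) and PECAM1 (28.4 to 66.5) higher and VWF (40.9 to 12.9) lower under FWatb. The leukocyte marker PTPRC was at 0 in all 6 FWctl samples and at no more than 2.55 in any sample. The summed level of the 7 markers ran from 75.7 to 111 normalized counts under FWctl, from 153 to 197 under FWatb, from 163 to 170.4 under PBS and from 175 to 272 under ATB. The part of these genes in the pump values was not tested.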

How the data were processed

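Total RNA of the 22 Caco-2 samples was depleted of ribosomal RNA and sequenced as stranded libraries of paired 150-base reads. Per the labels and the study's methods, the authors trimmed reads with Trimmomatic 0.38, aligned them to GRCh38 with HISAT2 2.1.0 and counted them over Ensembl 105 genes with featureCounts of Subread 2.0.0. The deposited values are raw read counts per gene, which the authors did not normalize, and the strand setting of the counting was not given in the sources used here. Symbols were found for 42045 of 61487 gene IDs, and positions and exon lengths were taken from GENCODE release 44.

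Every gene counted more than 5 times in 3 or more samples was tested with edgeR 4.0.16 (R 4.3.3, quasi-likelihood test, TMM scaling, 1 model over the 4 groups, 2-sided), with p-values adjusted by Benjamini-Hochberg over all genes tested. FWctl replicate 1 was left out, as the study left out 1 FWctl sample that its methods do not name. A normalized count is the raw count divided by the library's TMM-scaled size relative to the geometric mean of the 21 samples. The change relative to ABCB1 came from the same model with the log count of ABCB1 as an offset, which carries the counting error of ABCB1 into every gene. Spearman's rho with ABCB1 was tested with 100000 permutations. The fits were also run on simulated counts in which few genes changed. That run does not cover a comparison such as FWatb against FWctl, in which 48.8% of genes were called. DESeq2 1.42.0, limma 3.58.1, other scalings and filters, single libraries left out, library sets and replicate blocks were alternatives. The fits within the low ribosomal DNA libraries, the relative fits within the high ones and the centred Pearson correlation were added after the data were seen.

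By the study's methods both faecal waters came from the same mice, and the study compared FWctl with FWatb by a paired t-test. Both groups carry the same replicate numbers, but no label ties a number to a mouse. The deviations of same-numbered ATB and PBS samples from their group means correlated by 0.206 on average (0.139 to 0.286, 4 pairs). No label pairs them, and 5 of these 8 samples correlated best with their own number. The main fit paired no samples, those of FWatb and FWctl included, and the fit with the replicate number as a block was an alternative. No 2 libraries of a group agreed within counting noise. The pumps and the gene lists were chosen with earlier results of these data known. Of the other ABC genes, the text names up to 5 with the largest rise and up to 5 with the largest fall between FWatb and FWctl among those called whose normalized counts averaged 20 or more, and the 2 most and 2 least like ABCB1. Of each other list it names up to 3 with the largest called change, and any further gene was named after its values were seen.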

Additional observations from a re-analysis of the deposited data

Results flagged for a closer look

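In 8 of 45 groups of 4 to 7 samples the highest or lowest sample stood off from the rest by Dixon's criterion. Chance gives about 1 in 20 separate groups, but FWctl was examined with and without replicate 1, so the groups are not separate and the count is not set against chance. FWctl replicate 1, already set apart, was the sample for 3 of these, with 1966 normalized counts of ABCB1 (next highest FWctl sample 1191), 4406 of ABCC2 (next 3369) and 554 of ABCG2 (next 339). FWctl replicate 7 was the lowest of its group for ABCC1 (139, next 204) and for ABCC3 (1364, next 1615). FWctl replicate 2 was the highest for ABCC2 once replicate 1 was set apart (3369, next 2986). PBS replicate 1 held the most ABCB4 (17, next 7.6), and ATB replicate 2 the most ABCC5 (360.2, next 252).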

How the results depend on the processing

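Of 2449 values of single pumps under other settings, 2360 kept their direction and their side of the threshold, 48 lost the call, 37 gained one and 4 reversed. The number of pumps called fell from 5 to 3 between FWatb and PBS in the high ribosomal DNA libraries, from 7 to 3 between FWatb and FWctl with an absolute log2 change above 1, and from 5 to 3 relative to ABCB1 between FWatb and PBS with all 22 samples and in the high ribosomal DNA libraries. The number correlated with ABCB1 fell from 5 to 0 after centring on the condition means, by rho and by Pearson's r, and to 0 in the 7 low ribosomal DNA libraries. Those 7 hold no FWatb sample and are too few for a pump to pass easily, so that 0 says little: rho there was 0.86 for ABCC2 and 0.82 for ABCG2. The 4 reversals were the correlations of ABCC6 (-0.80, then 0.29 by rho and 0.23 by Pearson's r) and ABCC3 (-0.79, then 0.04 and 0.17) after centring. With all 22 samples 34 of 36 group means stayed within 1 SD, and with the longest transcript as the length 34 of 36 ranks per kilobase stayed, ABCC5 and ABCC6 trading places under FWatb. The cause of these changes was not tested. Except where it stands beside the count, the share of all genes called under another setting was not set against these numbers of pumps.

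Leaving out 1 sample at a time gave 6 to 8 pumps between FWctl and PBS, 4 to 7 between FWatb and PBS, 0 to 0 between ATB and PBS, 7 to 7 between FWatb and FWctl and 4 to 6 between FWatb and ATB. Relative to ABCB1 it gave 5 to 6 between FWctl and PBS, 4 to 5 between FWatb and PBS, 0 to 0 between ATB and PBS and 7 to 7 between FWatb and FWctl, and 5 to 6 pumps correlated with ABCB1. The shares of all genes called without each sample are not given here, so these ranges are not set against them.

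With the replicate number as a block, 7 pumps differed between FWatb and FWctl, 7 relative to ABCB1 there, and 0 between ATB and PBS, where ABCB1 had a log2 change of 0.24 (adjusted p = 0.0547, edgeR). These calls did not change. Between FWatb and FWctl the same-numbered samples correlated by 0.121 on average (-0.007 to 0.297), over 0.1 in 3 of 6 pairs, and 8 of 12 samples correlated best with their own number. The study's design pairs FWatb with FWctl by mouse, but which samples form a pair is inferred from their numbers. ATB and PBS samples share only a number, as do those of the remaining comparisons. The mean correlations in the remaining comparisons were -0.041 (FWctl and PBS), 0.045 (FWatb and PBS) and 0.011 (FWatb and ATB), and the block gave 6, 7 and 4 pumps. The shares of all genes called with the block are not given here, so these numbers of pumps are not set against them.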
